A study of Mus musculus with 12 samples.

Results

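The comparison was of atria from 3 CUG960 +dox mice with atria from 3 MHCrtTA +dox controls, 6 of the 12 libraries of the study, chosen by the tissue and genotype in the sample labels. CUG960 mice were homozygous for TREDT960I, a transgene that holds 960 interrupted CUG repeats in human DMPK exons behind a tetracycline-responsive minimal CMV promoter, and hemizygous for MHCrtTA, in which the cardiomyocyte-specific Myh6 (α myosin heavy chain) promoter drives the reverse tetracycline transactivator. Controls were hemizygous for MHCrtTA alone and came from another cross, so that both groups carried the transactivator, and both ate 2 g/kg dox chow from postnatal day 1. All 6 mice were 10-week-old FVB females (V119, V120 and V123 for CUG960, V327, V333 and V334 for controls). CUG960 is a single transgenic line, the transactivator is not driven in vessel, matrix or nerve cells, and the libraries were made from whole atria. The question was which genes and which functional groups differ in atria that express the repeat RNA.

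An expanded run of CTG repeats in DMPK, within its 3′ untranslated part, underlies myotonic dystrophy type 1. The transcribed CUG repeats form nuclear foci that bind MBNL proteins, RNA-binding factors that switch many exons and transcripts from their fetal to their adult forms, and CELF1, a factor with opposing effects, is increased in affected hearts. In the heart the disease is known for slowed conduction and for atrial arrhythmia, and atria differ from ventricles in their myosin light chains, their natriuretic peptide output and their gap junctions.

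Levels are CPM, the usual depth-scaled count unit, here with TMM-adjusted library sizes, and are listed mouse by mouse in the order V119, V120, V123 for CUG960 +dox mice and V327, V333, V334 for controls. Library totals ranged from 116127966 to 149950077 counts, and the number of mice per group, 3, limits precision. A mean is given ± SD over the 3 mice. Genes were called differentially expressed at an adjusted P value under 0.05 (edgeR quasi-likelihood test with Benjamini-Hochberg adjustment) and a fold change of at least 1.5. Log2 fold changes are given ± the standard error that the quasi-likelihood F statistic implies, which is the absolute log2 fold change over the square root of F. At this threshold 5.49% of the 17650 genes tested were called, 3.37% upregulated and 2.12% downregulated, and the median log2 fold change of all genes tested was −0.01. The counts below are to be read against these shares. The 3 values of each group did not overlap for 35.7% of all genes tested.

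Markers of the cell types that atrial tissue can hold were examined in each library. The label was borne out by atrial transcripts, with Nppa, the atrial natriuretic peptide, at 13204, 14260.3 and 13658 CPM in CUG960 +dox mice and 18981, 19167 and 16918 CPM in controls, and with the atrial light chain gene Myl7 at 3832, 3343 and 2910.2 CPM in CUG960 +dox mice and 3314, 3293 and 3239 CPM in controls. Myl2, the ventricular light chain gene, was at 11.0, 11.998 and 10.4 CPM in CUG960 +dox mice and 38.6, 10.2 and 13.6 CPM in controls, highest in V327. The 14 atrial cardiomyocyte markers, led by Nppa, summed to 30051, 31460.0 and 28853 CPM in CUG960 +dox mice and to 38126, 36866 and 34682 CPM in controls, without overlap, although 7 of the markers were higher and 7 lower (median 0.01). The 7 tested ventricular markers, led by Myh7, summed to 2786, 2854 and 2676 CPM and to 2296, 2006 and 2112 CPM, also without overlap, with 4 higher and 3 lower (median 0.23), and Irx4 had at most 10 counts in any library. The defining lung and airway genes Sftpc, Sftpb and Krt5 had no more than 4 counts in any library. The 6 tested lung markers, mostly Hopx, a gene that heart muscle also expresses, summed to 300.2, 291 and 256 CPM in CUG960 +dox mice and to 227, 240.4 and 234 CPM in controls, without overlap. Of these 4 were higher (2 without V119), and none was called by edgeR or DESeq2, with 1 unadjusted P value under 0.05.

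One control library, V334, stood apart from the other 5. Fos, an immediate early transcription factor gene, had 130.2 CPM in V334 and between 1.79 and 3.36 CPM in the others, and Egr1, Jun, Atf3 and Btg2 were also highest in V334 at 152, 476, 407 and 348 CPM. The summed level of 6 erythroid markers, led by the globin gene Hba-a1, was 3200.0 CPM in V334 and between 372 and 592 CPM in the others. The 15 macrophage markers, led by the lysozyme gene Lyz2, summed to 971 CPM in V334 and to between 480.4 and 585 CPM in the others. Hspa1a, an inducible heat shock gene, was at 3.44, 9.41 and 3.34 CPM in CUG960 +dox mice and 10.1, 14.9 and 66.4 CPM in controls. Without V334 the erythroid markers had a median log2 fold change of −0.33 (−1.76 with it, all 6 lower in both), and of the macrophage markers 11 of 15 were higher (median 0.06), against 3 of 15 with it (median −0.19). V327 and V333 also differed from the other controls. Thymocyte genes stood out in V327 and in V120, with Rag1, a recombinase of developing lymphocytes, at 100 counts in V327, 61 in V120 and 1 to 9 in the other 4 libraries, and Dntt at 37, 20 and 0 to 4. The 5 tested thymus markers, led by Cd1d1, summed to at most 5.50 CPM in any library, with overlapping groups and none called by edgeR or DESeq2 or at an unadjusted P value under 0.05. V327 had clock gene levels closer to those of CUG960 +dox mice than the other controls had, and V333 had the most adipocyte transcript, with Adipoq at 5.90 CPM against at most 1.90 CPM in the others.

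**Figure D1:**
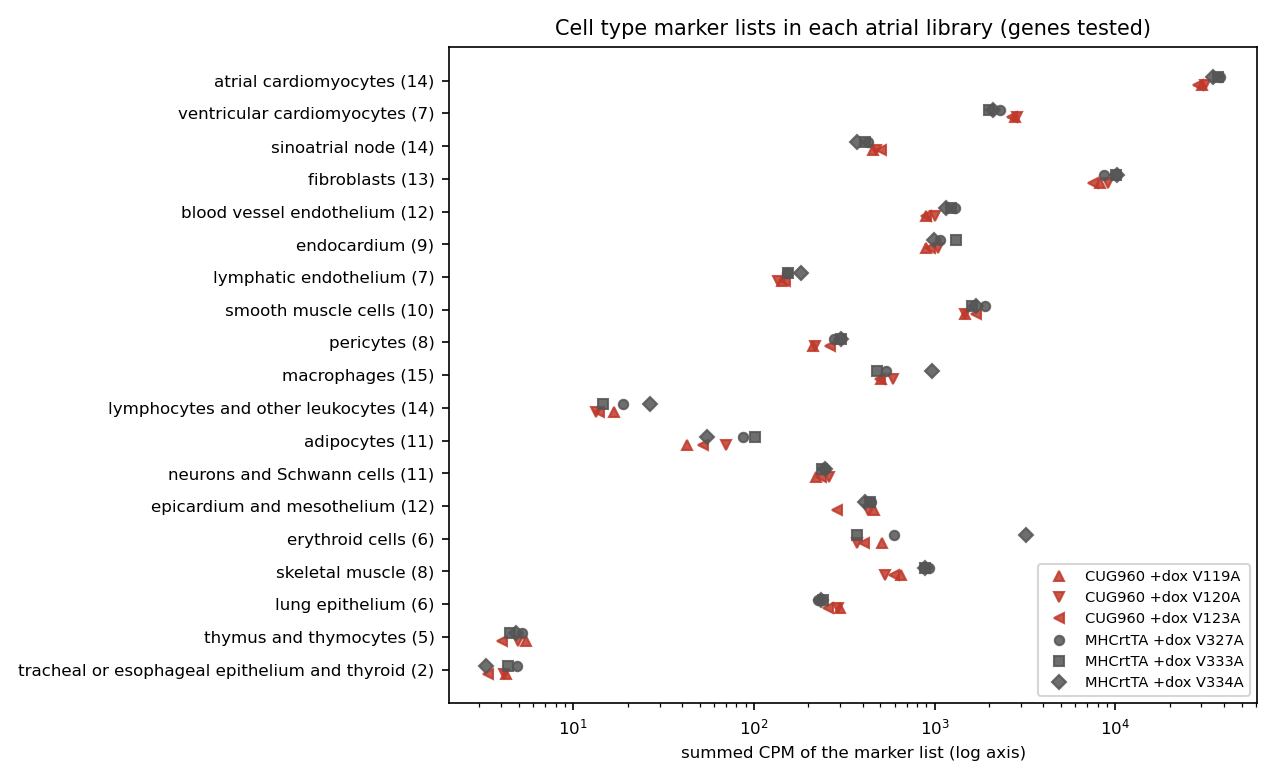
Summed CPM (log axis) of 19 cell type marker lists in each of the 6 atrial libraries, with the number of genes tested in parentheses, triangles for CUG960 +dox mice and other symbols for MHCrtTA +dox controls. Erythroid markers reach 3200.0 CPM in V334, a control, and the sums for blood vessel endothelium and pericytes are lower in each CUG960 +dox mouse than in each control.

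Among non-myocyte lists, blood vessel endothelium summed to 894, 1007 and 896 CPM in CUG960 +dox mice and to 1304, 1227 and 1150 CPM in controls. The groups did not overlap, and 11 of 12 markers were lower, with a median log2 fold change of −0.38. Pecam1, an adhesion receptor of endothelial junctions and the most abundant of them, was at 146, 193 and 159.8 CPM in CUG960 +dox mice and 272, 286 and 254 CPM in controls (log2 fold change −0.71 ± 0.10, adjusted P value 0.0043). Tek, the angiopoietin receptor, was also called (−0.62), although it fell short of the fold limit when 1 library was left out (log2 fold change −0.56, −0.57 and −0.55 without V119, V327 and V333). All 8 pericyte markers were lower (median −0.41, summed 211, 217 and 262 CPM against 277, 305 and 302 CPM, Rgs5 most abundant), and none was called by edgeR or DESeq2 (1 by edgeR without V327), although 6 had an unadjusted P value under 0.05. All 13 fibroblast markers were lower as well (median −0.39), but their sums overlapped, at 8211, 9071 and 7541 CPM in CUG960 +dox mice and 8623, 10110.0 and 10222 CPM in controls, with the actin-severing protein gene Gsn most abundant. Of the 13, 2 were called, both down (1 without V119 or V123, 3 without V120), and 11 had an unadjusted P value under 0.05. All 13 were lower in each fit without 1 library. All 9 endocardial markers, led by Npr3, were lower (median −0.23, sums overlapping). None was called by edgeR, 1 was by DESeq2, and 5 had an unadjusted P value under 0.05. Without V334 2 were called and without V120 1, and 6 of the 9 were lower without V333. All 11 adipocyte markers, led by Lipe, were lower (median −1.05, sums overlapping), with none called by edgeR or DESeq2 and 1 unadjusted P value under 0.05. The adipocyte median was −0.32 without V333 and −0.69 without V119, with 10 of the 11 lower in both fits. The 7 lymphatic markers, led by Prox1, summed to 142, 137 and 149 CPM against 152, 155 and 182 CPM without overlap, but 3 were higher and 4 lower (median −0.03), and the median was 0.00 without V120 and 0.01 without V334. It was −0.11, −0.09 and −0.12 without V119, V327 and V333. Of the 7, 1 was called, down, and 1 was called down in each fit without 1 library (beside 1 up without V334). Of 14 lymphocyte and leukocyte markers, 12 were lower (median −0.37), and without V334 8 were (median −0.13). None was called by edgeR (1 without V119, V327 or V333) and 2 were by DESeq2, with 4 unadjusted P values under 0.05. Of 12 epicardial and mesothelial markers, 11 were lower (median −0.21), and without V123 7 were (median −0.06). None was called by edgeR (1 without V333) and 2 were by DESeq2, with 5 unadjusted P values under 0.05. The sums of both lists overlapped. In bulk tissue, fewer cells of a type and less RNA per cell cannot be told apart. The part of these markers in the gene lists below was not tested.

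The genes with the largest changes came from different functional groups. Vdr, the vitamin D receptor, had 82.0, 74.6 and 80.8 CPM in CUG960 +dox mice and 15.3, 14.9 and 14.4 CPM in controls, and the groups were far apart (log2 fold change 2.41 ± 0.06, adjusted P value 9.4e-07). Cited1, a transcriptional coactivator that partners SMAD and CBP/p300 proteins, was at 14.5, 11.6 and 11.9 CPM in CUG960 +dox mice and 1.09, 1.24 and 1.22 CPM in controls (log2 fold change 3.41 ± 0.13, adjusted P value 1.0e-05), and Gucy2e, a membrane guanylyl cyclase best known from photoreceptors, was at 8.94, 7.75 and 8.88 CPM in CUG960 +dox mice and 1.09, 0.910 and 0.760 CPM in controls (log2 fold change 3.21 ± 0.16, adjusted P value 2.9e-05). Each of these genes was uniform within its group, and the lowest CUG960 +dox mouse was several times above the highest control. Rgs16, which speeds the shut-off of G proteins, rose from 1.38 ± 0.316 to 9.84 ± 0.459 CPM (log2 fold change 2.83 ± 0.16, adjusted P value 6.2e-05), and Shisa3, an inhibitor of Wnt and FGF receptor transport, rose from 0.476 ± 0.0417 to 3.57 ± 0.646 CPM (log2 fold change 2.90 ± 0.19, adjusted P value 0.00010). Wif1, a secreted Wnt inhibitor, was at 2.63, 2.18 and 1.84 CPM in CUG960 +dox mice and 0.309, 0.0996 and 0.170 CPM in controls (log2 fold change 3.53 ± 0.37, adjusted P value 0.00098). The long noncoding RNA 2310039L15Rik rose as well, from 0.128 ± 0.0509 to 2.13 ± 0.304 CPM (4.04, adjusted P value 0.00021). Of these genes, Vdr lies on chromosome 15 from 97854425 to 97910630 on the minus strand of GRCm38, Cited1 on chromosome X from 102247381 to 102252181 on the minus strand and Gucy2e on chromosome 11 from 69218117 to 69237036 on the minus strand.

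Among the largest decreases, Cdnf, which encodes a neurotrophic factor resident in the endoplasmic reticulum, was at 3.21, 2.96 and 3.42 CPM in CUG960 +dox mice and 22.3, 18.6 and 18.4 CPM in controls (log2 fold change −2.63 ± 0.11, adjusted P value 1.7e-05). Clcn1, the skeletal muscle chloride channel gene, fell from 13.8 ± 0.672 to 2.87 ± 0.460 CPM (−2.27, adjusted P value 6.2e-05). Stmnd1, a stathmin-domain gene, was at 0.283, 0.333 and 0.407 CPM in CUG960 +dox mice and 7.09, 4.78 and 3.72 CPM in controls (log2 fold change −3.93 ± 0.28, adjusted P value 0.00018), and controls varied more than CUG960 +dox mice. 2610028H24Rik was at 0.194, 0.437 and 0.492 CPM in CUG960 +dox mice and 5.26, 1.7995 and 3.02 CPM in controls (log2 fold change −3.16 ± 0.46, adjusted P value 0.0041) and the unclassified transcript Gm44103 at 0.607, 0.289 and 0.526 CPM in CUG960 +dox mice and 2.44, 2.06 and 2.03 CPM in controls (log2 fold change −2.20 ± 0.27, adjusted P value 0.0020). Cldn23, a claudin gene, varied more, at 0.315, 0.630 and 0.144 CPM in CUG960 +dox mice and 3.37, 1.26 and 1.29 CPM in controls (log2 fold change −2.42 ± 0.56, adjusted P value 0.025). Its call was lost when a library was left out (adjusted P value 0.099, 0.053 and 0.065 without V119, V123 and V327).

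The 3 largest increases were 3110035E14Rik, which the annotation names Vxn, a gene with neural roles, and the Rpl21 pseudogenes Gm10240 and Gm13370. None of the 31 genes of at least 1 CPM within 500 kb of any of them was called. Around Vxn on chromosome 1, the neighbours included Adhfe1 (0.36, adjusted P value 0.0089), Cops5 (0.26, adjusted P value 0.024), Sgk3 (−0.28, adjusted P value 0.066) and Rrs1 (−0.21, adjusted P value 0.12). The rise of Vxn, from 0.201 ± 0.0583 to 36.6 ± 2.32 CPM, was far larger than any change in the genes beside it.

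Rpl21 encodes a protein of the large ribosomal subunit and has many processed copies in the mouse genome. The processed pseudogene Gm10163 (chromosome 9 from 88390837 to 88391317 on the plus strand) was at 83.0, 80.3 and 62.2 CPM in CUG960 +dox mice and 0.739, 0.671 and 0.826 CPM in controls. Its 481 bases matched the Rpl21 transcript (chromosome 5 from 146832890 to 146837032 on the plus strand) at all but 2 positions, counted from 1 at the 5′ end of Gm10163 and given as the Rpl21 base, the position and the Gm10163 base: T336C and T432C. The bases around each position are shown in GENCODE M21 sequence because the sequences differ at no other position, with the differing base in capitals.
Rpl21 at T336C: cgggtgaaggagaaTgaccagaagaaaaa
Gm10163 at T336C: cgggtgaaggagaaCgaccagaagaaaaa
Rpl21 at T432C: tttgtgaggactaaTggaaaagagcctga
Gm10163 at T432C: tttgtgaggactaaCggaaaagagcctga
Gm10240 on chromosome 15 and Gm13370 on chromosome 2 differ from Rpl21 at 2 positions each as well, and their counts were identical to each other in every atrial library, at 0 in controls and at 491, 474 and 133 in CUG960 +dox mice. Rpl21 itself was at 336, 302 and 273 CPM in CUG960 +dox mice and at 358, 325 and 315 CPM in controls. Summed over Rpl21 and its 9 tested copies, the level was 428, 391 and 338 CPM against 360, 326 and 316 CPM, and the groups overlapped. Gm10163 took between 18.4% and 20.6% of that sum in CUG960 +dox mice and between 0.205% and 0.261% in controls. Because RSEM divides reads among matching loci, the assignment of these reads to any 1 copy is uncertain.

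The called genes were then grouped by 47 lists of function, which hold 1954 of the genes tested. Of these, 133 were called (6.81%), 69 upregulated and 64 downregulated. List medians of the log2 fold change ranged from −0.61 for immediate early genes to 0.15 for clock genes.

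**Figure D2:**
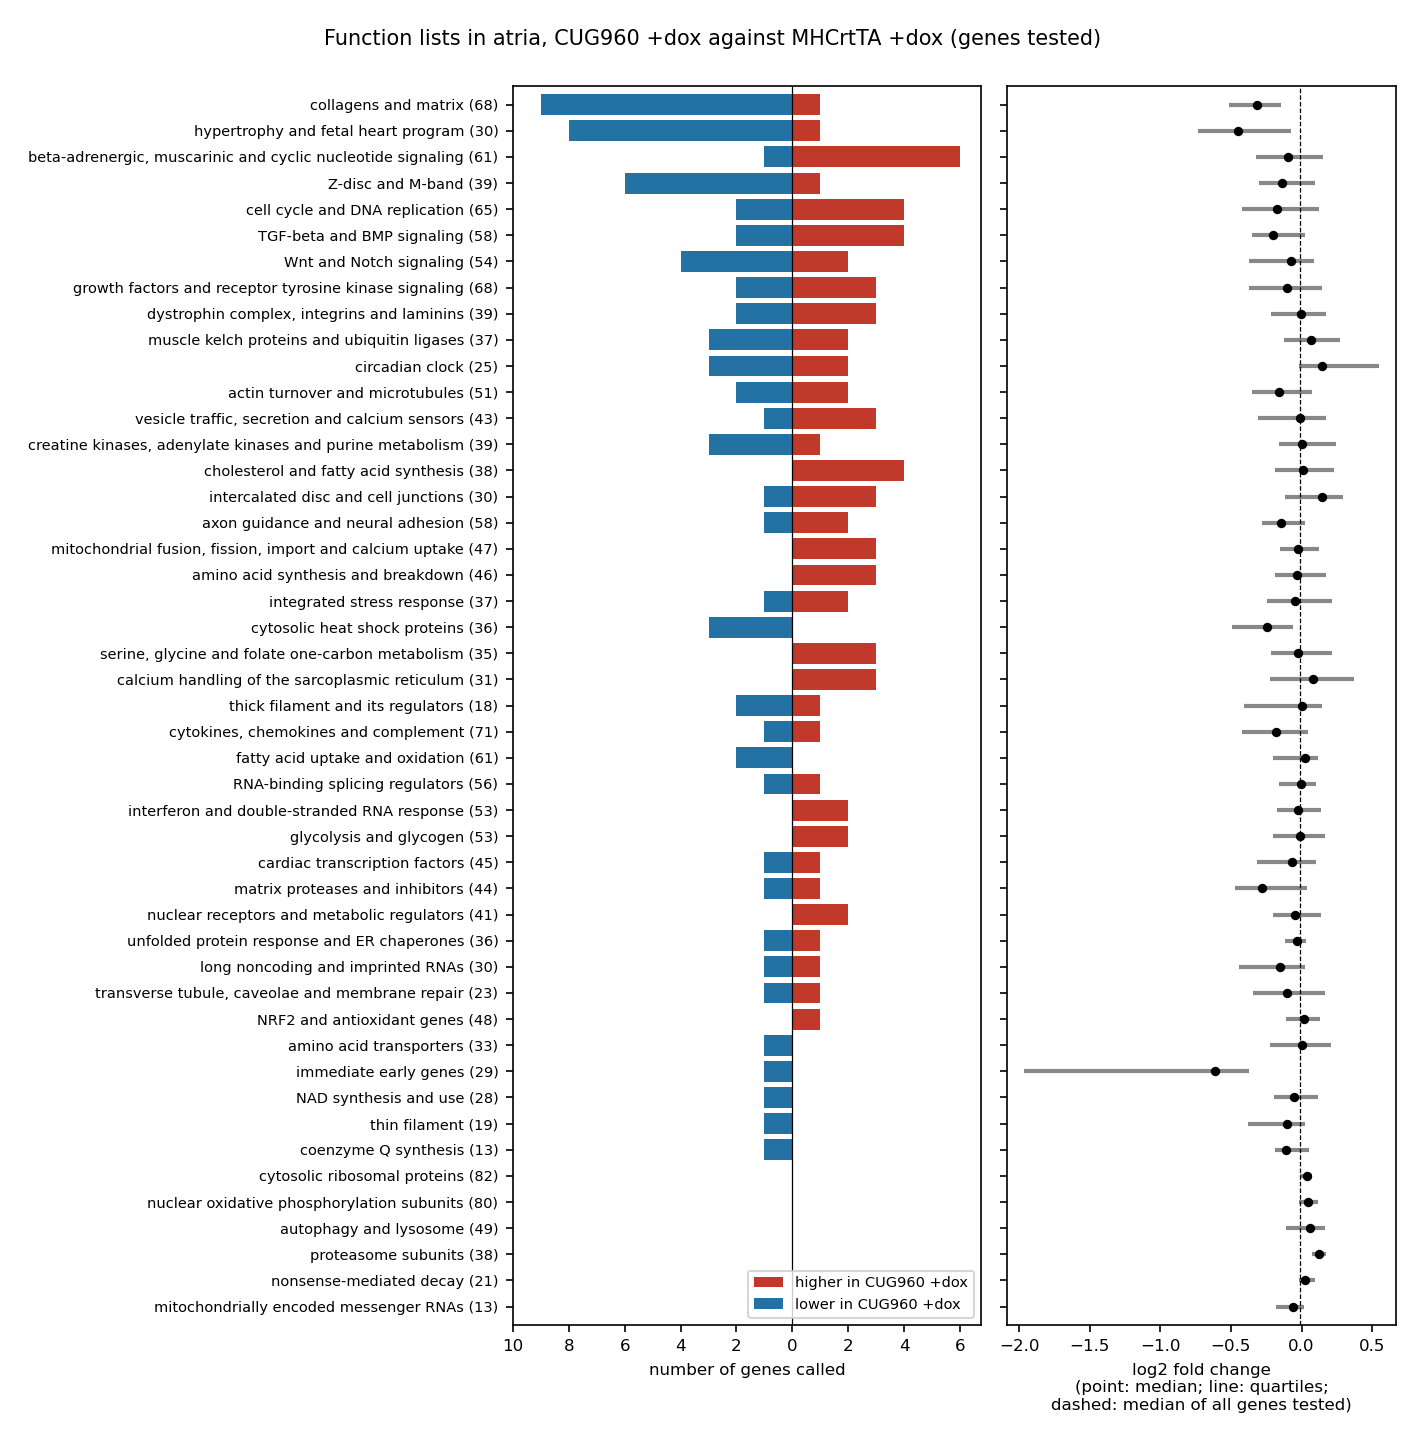
Left, number of genes called in each function list in atria (red to the right, higher in CUG960 +dox; blue to the left, lower), with the number of genes tested in parentheses. Right, the median (point) and quartiles (line) of the log2 fold change of all tested members; the matrix list has 9 lower calls and 1 higher, and the ribosomal, oxidative phosphorylation, proteasome, autophagy, nonsense-mediated decay and mitochondrially encoded lists have none.

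In the contractile apparatus, the thick filament list had 3 of 18 genes called (1 up, 2 down, median log2 fold change 0.00), the thin filament list 1 of 19 (down, median −0.10, and 2 without V120 or V334), and the list of Z-disc and M-band genes 7 of 39 (1 up, 6 down, median −0.14). Mylk4, a myosin light chain kinase of heart muscle, was at 319, 385 and 413 CPM in CUG960 +dox mice and 139, 117 and 119.1 CPM in controls (log2 fold change 1.58 ± 0.11, adjusted P value 0.00017). Mybpc2, the fast skeletal isoform of myosin-binding protein C, was at 3.78, 6.21 and 4.21 CPM in CUG960 +dox mice and 16.2, 19.7 and 21.3 CPM in controls (log2 fold change −2.01 ± 0.19, adjusted P value 0.00070). Each mouse of 1 group lay outside the range of the other for both genes, in opposite directions. Myh14, a nonmuscle myosin, also fell (−0.61), and so did Tnnc1, cardiac troponin C (703, 537 and 635 CPM in CUG960 +dox mice and 958, 1058 and 936 CPM in controls, log2 fold change −0.65 ± 0.10, adjusted P value 0.0055), but both fell short of the fold limit when a library was left out (log2 fold change −0.58, −0.57 and −0.51 without V119, V123 and V327 for Myh14, log2 fold change −0.56 without V120 for Tnnc1). Myh6 and Myh7, the α and β myosin heavy chains, were not called (0.22 and 0.23, adjusted P values 0.039 and 0.091).

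Of the 7 called Z-disc and M-band genes, 6 fell. Pdlim7, a PDZ-LIM adaptor that links kinases to the Z-disc, was at 15.4, 15.1 and 14.9 CPM in CUG960 +dox mice and 41.1, 50.8 and 47.6 CPM in controls (log2 fold change −1.62 ± 0.08, adjusted P value 3.8e-05), with little spread among CUG960 +dox mice. Ankrd23, a stretch-responsive ankyrin repeat protein of the titin I-band, was at 26.7, 48.7 and 24.3 CPM in CUG960 +dox mice and 86.6, 113 and 164 CPM in controls (log2 fold change −1.87 ± 0.31, adjusted P value 0.0068), and Murc (Cavin4), a muscle caveolar coat protein, was at 12.3, 24.6 and 18.3 CPM in CUG960 +dox mice and 44.7, 38.1 and 46.8 CPM in controls (log2 fold change −1.23 ± 0.22, adjusted P value 0.0089). Xirp2, an actin-binding repeat protein of the intercalated disc, fell from 525 ± 11.0 to 264 ± 30.7 CPM (−0.99, adjusted P value 0.00052). All 4 genes kept the call in each fit without 1 library. Fhl1, a LIM-domain partner of titin, also fell (−0.89), with a call lost when V119 was left out (adjusted P value 0.059 without V119), and Xirp1 (−1.05, adjusted P value 0.041) lost its call when any library but V333 was left out (adjusted P value 0.12, 0.12, 0.096, 0.097 and 0.085 without V119, V120, V123, V327 and V334). Fhl2, which belongs to the same LIM-domain family as Fhl1, went the other way, at 176, 164 and 184 CPM in CUG960 +dox mice and 83.5, 78.0 and 84.7 CPM in controls (log2 fold change 1.09 ± 0.07, adjusted P value 7.6e-05).

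The list of hypertrophy and fetal heart genes, of whose called genes Xirp2, Fhl1, Postn and Nmrk2 are also in other function lists, had the highest share of calls of the function lists, 9 of 30 genes (30.0%), with 1 up and 8 down and a median of −0.45. The lists were chosen with earlier results of these data known, so that this rank is a description only. Nmrk2, a muscle nicotinamide riboside kinase that feeds NAD synthesis, was at 1.79, 2.48 and 3.22 CPM in CUG960 +dox mice and 26.3, 9.88 and 13.2 CPM in controls (log2 fold change −2.72 ± 0.38, adjusted P value 0.0033). The groups did not overlap, and V327 had the highest level. Nmrk2 was also the single call among 28 genes of NAD synthesis and use (median −0.05). Corin, the protease that cleaves the natriuretic peptide precursor, was at 196, 244 and 249.9 CPM in CUG960 +dox mice and 416, 332.99 and 355 CPM in controls (log2 fold change −0.68 ± 0.11, adjusted P value 0.0076), Edn1, the vasoconstrictor endothelin, at 1.92, 2.47 and 2.62 CPM in CUG960 +dox mice and 3.76, 3.69 and 4.15 CPM in controls (log2 fold change −0.73 ± 0.15, adjusted P value 0.016), and Ace, the angiotensin-converting enzyme, at 22.3, 28.0 and 26.0 CPM in CUG960 +dox mice and 36.0, 38.7 and 44.2 CPM in controls (log2 fold change −0.64 ± 0.10, adjusted P value 0.0068). Rcan1, an inhibitor of calcineurin, fell as well (−0.67, adjusted P value 0.032). Agtr1a, the angiotensin II receptor, was the upregulated member, at 26.1, 22.0 and 29.2 CPM in CUG960 +dox mice and 12.4, 12.3 and 12.01 CPM in controls (log2 fold change 1.07 ± 0.10, adjusted P value 0.00070). Corin, Edn1, Ace and Rcan1 are outside the naming rule and were chosen after their values were seen. Their calls were lost without single libraries, for Corin (log2 fold change −0.57 without V119), Edn1 (adjusted P value 0.052 without V334), Ace (log2 fold change −0.55 and −0.55 without V119 and V334) and Rcan1 (adjusted P value 0.11, 0.075 and 0.086 without V119, V120 and V123 and log2 fold change −0.43 without V334). Genes most used as signs of cardiac stress were not called, namely Nppa (−0.42, adjusted P value 0.0083, under the fold limit), Nppb (−1.41, adjusted P value 0.081) and Acta1 (−1.13, adjusted P value 0.30). Without V334, 7 genes of the list were called (1 up, 6 down), and without V119 5 genes were (1 up, 4 down).

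**Figure D3:**
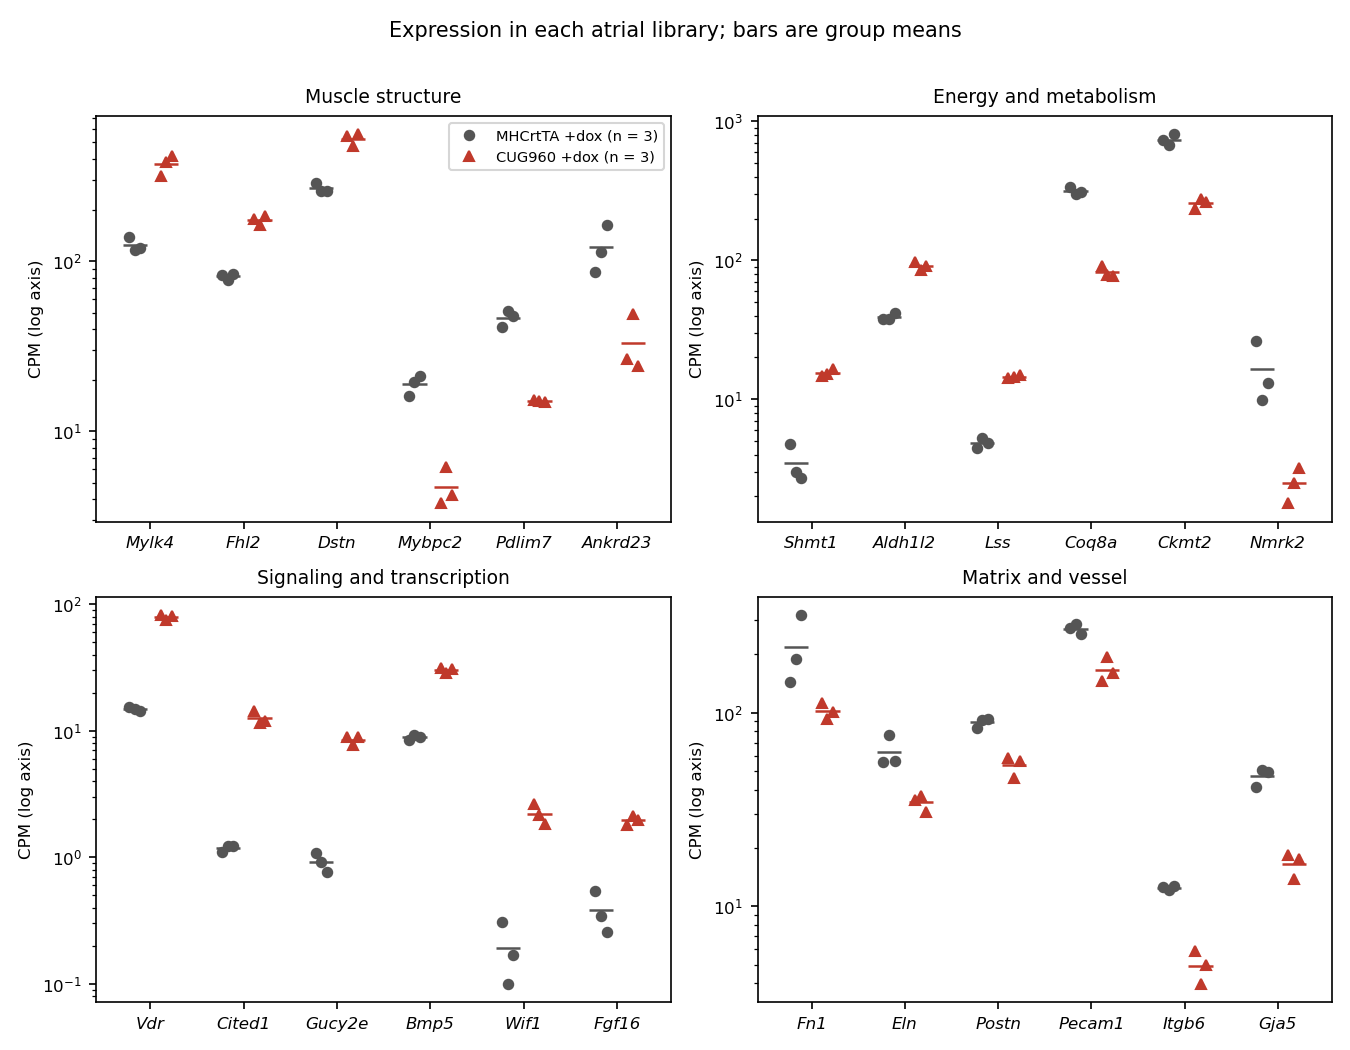
CPM (log axis) of 24 genes in each atrial library, in 4 panels by role; circles are MHCrtTA +dox controls, triangles are CUG960 +dox mice and bars are the means of 3. The triangles of Vdr lie between 74.6 and 82.0 CPM and its circles between 14.4 and 15.3 CPM, whereas the circles of Fn1 spread from 144 to 318 CPM.

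Cytoskeleton, junction and membrane lists held calls in both directions, with shares from 7.84% to 13.3%. In the list of actin and microtubule genes, 4 of 51 were called (2 up, 2 down, median −0.16), and 7 (2 up, 5 down) in the fit of all 12 libraries. Dstn, which depolymerizes actin filaments, was at 548, 474 and 557 CPM in CUG960 +dox mice and 289, 258 and 258 CPM in controls (log2 fold change 0.97 ± 0.08, adjusted P value 0.00042). In the intercalated disc list, 4 of 30 genes were called (3 up, 1 down, median 0.14). Popdc3, a membrane protein of the cAMP-binding popeye family, was at 23.0, 32.2 and 25.9 CPM in CUG960 +dox mice and 11.2, 9.09 and 11.6 CPM in controls (log2 fold change 1.35 ± 0.14, adjusted P value 0.00098), and Pkp4, a plakophilin of adherens junctions, at 346, 332 and 372 CPM in CUG960 +dox mice and 221, 215 and 203 CPM in controls (log2 fold change 0.72 ± 0.07, adjusted P value 0.00063). Gja5, the connexin 40 gene of atrial gap junctions, went down (−1.51), and Gjd3, another connexin gene named after its values were seen, was up at under 1 CPM (1.55). The list of dystrophin complex, integrin and laminin genes had 5 of 39 called (3 up, 2 down, median 0.00), 2 without V334 (1 up, 1 down) and 3 without V120 or V123. Itgb6, an epithelial integrin subunit, was at 5.90, 3.98 and 4.96 CPM in CUG960 +dox mice and 12.6, 12.2 and 12.8 CPM in controls (log2 fold change −1.34 ± 0.14, adjusted P value 0.00098), and Sgce, ε-sarcoglycan, at 57.6, 59.2 and 54.8 CPM in CUG960 +dox mice and 35.9, 37.4 and 36.0 CPM in controls (log2 fold change 0.65 ± 0.06, adjusted P value 0.00044). Sspn, sarcospan, was also called (0.60), and lost the call to the fold limit when a library was left out (log2 fold change 0.49 and 0.56 without V123 and V334). The list of transverse tubule, caveolar and membrane repair genes had 2 of 23 genes called, the annexin genes Anxa5 (up, 0.84) and Anxa2 (down, −0.65, and log2 fold change −0.56 without V123). Of 31 calcium handling genes of the sarcoplasmic reticulum, 10 were higher and 4 lower at an adjusted P value under 0.05. With the fold limit 3 were called, all up (median of the list 0.08), and without V123 5 (3 up, 2 down, median 0.04). Fkbp1b, which binds the ryanodine receptor, was one of them (0.71), and its call was lost without 1 library (adjusted P value 0.088, 0.061, 0.063 and 0.084 without V119, V120, V327 and V333). Jph3 and Mrln, a junctophilin and a calcium pump inhibitor, were the others (2.31 and 1.64), both at means under 1 CPM and named after their values were seen, with the call of Mrln lost without 1 library (adjusted P value 0.060 without V119).

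None of the 80 nuclear oxidative phosphorylation genes (median 0.05, 55 higher) or of the 13 mitochondrially encoded mRNAs (median −0.06) was called by edgeR. The oxidative phosphorylation median was 0.02 without V119 (44 higher) and 0.09 without V123 (61 higher). That of the mitochondrially encoded mRNAs was 0.04 without V327 and −0.15 without V120. In these lists 2 and 1 genes, respectively, had an adjusted P value under 0.05 below the fold limit, including Ndufs7 (−0.27) and mt-Nd1 (−0.39). Coq8a, an atypical kinase needed for coenzyme Q synthesis, was the single call among 13 genes of that pathway, at 91.4, 78.8 and 76.7 CPM in CUG960 +dox mice and 338, 299 and 311 CPM in controls (log2 fold change −1.94 ± 0.09, adjusted P value 2.2e-05). Ckmt2, the mitochondrial creatine kinase of striated muscle, was at 234, 278 and 263 CPM in CUG960 +dox mice and 732, 679.7 and 805 CPM in controls (log2 fold change −1.52 ± 0.09, adjusted P value 6.8e-05). Both fell by similar amounts in all 3 CUG960 +dox mice. Among creatine and adenylate kinase genes, 4 of 39 were called (1 up, 3 down, median 0.00). Ak4, a mitochondrial adenylate kinase, fell (−0.83, adjusted P value 0.0081), and so did Ckm, cytosolic muscle creatine kinase (−0.60), which passed under the fold limit when a library was left out (log2 fold change −0.53 and −0.58 without V120 and V327). Prkag2, the cardiac regulatory subunit of AMP-activated kinase, rose (0.62), with the same limit reached (log2 fold change 0.54 without V334).

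Of 61 genes of fatty acid uptake and oxidation, 2 were called, both down (median 0.03), and 4, all down, without V123 or V333. Plin4, a lipid droplet coat protein, was at 183, 253 and 254 CPM in CUG960 +dox mice and 459.5, 366 and 396 CPM in controls (log2 fold change −0.82 ± 0.14, adjusted P value 0.0073), and Ucp2, a mitochondrial carrier, at 179, 314 and 293 CPM in CUG960 +dox mice and 574, 462 and 489 CPM in controls (log2 fold change −0.96 ± 0.19, adjusted P value 0.015), with the call of Ucp2 lost when V327 was left out (adjusted P value 0.052 without V327). Of 53 genes of glycolysis and glycogen, 2 were called, both up (median −0.01). These were Pfkp, the platelet phosphofructokinase (73.2, 70.6 and 70.3 CPM in CUG960 +dox mice and 44.1, 43.7 and 41.6 CPM in controls, log2 fold change 0.73 ± 0.05, adjusted P value 0.00022), and Pfkfb1, which makes the activator of phosphofructokinase (1.07, adjusted P value 0.0039).

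The lists of sterol, one-carbon and amino acid metabolism had medians near 0, and their 10 calls were all up. The shares called were 10.5%, 8.57% and 6.52%, and 594 of all 969 calls were up. Calls in the lists of fatty acid oxidation, NAD, coenzyme Q and amino acid transport were all down. Those in the lists of glycolysis and of mitochondrial fusion, fission, import and calcium uptake were all up. Other fits added calls down, 1 in the sterol list without V327 (2 with no filter on low counts), 1 in the one-carbon list without V120 and 1 in the amino acid list without V119 or V327. In the cholesterol and fatty acid synthesis list, 4 of 38 genes were called (median 0.01). Lss, which closes squalene epoxide into lanosterol, was at 14.3, 14.5 and 14.9 CPM in CUG960 +dox mice and 4.48, 5.28 and 4.83 CPM in controls (log2 fold change 1.58 ± 0.09, adjusted P value 6.2e-05), and the desaturase Scd4 was at 11.4, 13.9 and 13.9 CPM in CUG960 +dox mice and 5.62, 3.87 and 2.82 CPM in controls (log2 fold change 1.67 ± 0.23, adjusted P value 0.0031). Fdft1, squalene synthase, and Cyp51, lanosterol demethylase, rose less (0.81 and 0.67, adjusted P values 0.0085 and 0.00098). The 4 calls held in each fit without 1 library. In serine, glycine and folate metabolism, 3 of 35 genes were called (median −0.02). Shmt1, the cytosolic enzyme that moves a carbon from serine to folate, was at 14.6, 15.3 and 16.5 CPM in CUG960 +dox mice and 4.80, 2.99 and 2.74 CPM in controls (log2 fold change 2.14 ± 0.20, adjusted P value 0.00067), and Aldh1l2, which oxidizes formyl folate in mitochondria, at 97.6, 84.8 and 91.4 CPM in CUG960 +dox mice and 38.1, 37.7 and 41.8 CPM in controls (log2 fold change 1.22 ± 0.07, adjusted P value 7.3e-05). Psat1, of serine synthesis, was called with a smaller change (0.64, adjusted P value 0.020), which did not hold without 1 library (adjusted P value 0.070, 0.054, 0.061 and 0.072 without V119, V123, V327 and V333). Among 46 genes of amino acid synthesis and breakdown, 3 were called (median −0.04). Rimkla, which joins N-acetylaspartate and glutamate into the neural peptide NAAG, was at 11.4, 9.47 and 16.3 CPM in CUG960 +dox mice and 1.41, 2.15 and 2.12 CPM in controls (log2 fold change 2.71 ± 0.24, adjusted P value 0.00052), Aass, the first enzyme of lysine breakdown, at 30.2, 27.4 and 33.0 CPM in CUG960 +dox mice and 14.7, 13.3 and 15.2 CPM in controls (log2 fold change 1.07 ± 0.09, adjusted P value 0.00035), and Abat, which degrades GABA, at 253, 256 and 248 CPM in CUG960 +dox mice and 166, 157 and 149 CPM in controls (log2 fold change 0.68 ± 0.06, adjusted P value 0.00057). Of 33 amino acid transporter genes 1 was called, Slc7a5, which was down (median 0.00, 2 down without V120). Of 47 genes of mitochondrial fusion, fission, import and calcium uptake, 27 were lower (median −0.02) and 3 were called, all up, among them the carriers Slc25a13, the aspartate-glutamate exchanger (0.74, adjusted P value 0.0018), and Slc25a33, a pyrimidine nucleotide carrier (0.70, adjusted P value 0.0019).

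In the list of integrated stress response genes, 3 of 37 were called (2 up, 1 down, median −0.04), namely Aldh1l2 and Psat1, which also belong to one-carbon metabolism, and Slc7a5, the large neutral amino acid transporter, at 17.2, 22.2 and 23.0 CPM in CUG960 +dox mice and 36.1, 40.7 and 37.0 CPM in controls (log2 fold change −0.87 ± 0.11, adjusted P value 0.0026). RefSeq promoter windows of 300 bases (GRCm38.p6, 250 before and 50 after the start) were found for 33 of these 37 genes. The C/EBP-ATF response element, TGATGNAA on either strand, was present for 8 of them, including Atf3, Chac1, Trib3 and Asns, and in 3.97% of all 32851 windows. The first is a count of genes, which can have several windows, and the second a share of windows. None of these 8 genes was called. Of 36 genes of the unfolded protein response, 2 were called, Cdnf and Derl3 (median −0.03), and the call of Derl3 (0.85) did not hold without 1 library (adjusted P value 0.11, 0.071, 0.068, 0.12 and 0.095 without V119, V120, V123, V333 and V334). None of the 38 proteasome subunit genes was called, although 35 were higher, by a median of 0.12, and 4, such as Psmd4 (0.30, adjusted P value 0.015), had an adjusted P value under 0.05. None of 49 autophagy and lysosome genes, 21 genes of nonsense-mediated decay and 82 cytosolic ribosomal protein genes was called by edgeR (medians 0.06, 0.03 and 0.04), and 3, 2 and 1 of them had an adjusted P value under 0.05 below the fold limit. The ribosomal median was −0.04 without V119, with 64 of the 82 lower, and 0.11 without V123, with 72 higher. Of 48 NRF2 and antioxidant genes 1 was called, Ggct (0.61), up (median 0.02), and its call did not hold without single libraries (log2 fold change 0.57 and 0.56 without V119 and V333).

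Of 36 cytosolic heat shock genes, 31 were lower (median −0.24) and 3 were called, 6 in the fit of all 12 libraries and 7 with no filter on low counts, all down. Hsp90aa1, the stress-inducible HSP90, was at 231, 338 and 225 CPM in CUG960 +dox mice and 435, 380.4 and 525 CPM in controls (log2 fold change −0.76 ± 0.17, adjusted P value 0.025), and Hspb1, a small heat shock protein of the sarcomere, was at 181, 229 and 157 CPM in CUG960 +dox mice and 322, 234 and 461 CPM in controls (log2 fold change −0.84 ± 0.23, adjusted P value 0.047). V334 had the highest level of both. Both calls were lost when single libraries were left out (adjusted P value 0.094, 0.066, 0.058 and 0.063 without V119, V123, V327 and V334 for Hsp90aa1, adjusted P value 0.14, 0.065, 0.12, 0.089 and 0.092 without V119, V120, V123, V327 and V334 for Hspb1). Without V334, 28 of the 36 genes were lower (median −0.18) and 1 was called, as without V123, and without V119 none was. The other gene, the co-chaperone Dnajb2, fell (−0.65), and passed under the fold limit without V119 and without V327 (log2 fold change −0.58 and −0.57 without V119 and V327). In the list of muscle kelch proteins and ubiquitin ligases, 5 of 37 genes were called (2 up, 3 down, median 0.07). Klhl34 fell (−3.00), Klhl40, which stabilizes thin filament proteins, was at 8.90, 7.51 and 9.45 CPM in CUG960 +dox mice and 20.7, 15.7 and 15.9 CPM in controls (log2 fold change −1.02 ± 0.13, adjusted P value 0.0028), and Kbtbd12 was at 22.8, 20.8 and 23.3 CPM in CUG960 +dox mice and 44.9, 37.7 and 40.2 CPM in controls (log2 fold change −0.88 ± 0.08, adjusted P value 0.00063). Klhl33 rose (0.83, adjusted P value 0.010), and Asb15 rose with a call that was lost without 1 library (0.93, and adjusted P value 0.057, 0.069, 0.070 and 0.065 without V119, V120, V123 and V327).

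Calls among signaling genes went in both directions. In the list of adrenergic, muscarinic and cyclic nucleotide signaling, 7 of 61 genes were called (6 up, 1 down), whereas the median was −0.09 and 38 of the 61 were lower. Besides Gucy2e, described above, the phosphatase inhibitor genes Ppp1r1a (19.9, 18.5 and 15.2 CPM in CUG960 +dox mice and 7.97, 9.08 and 9.46 CPM in controls) and Ppp1r1b (DARPP-32, 82.3, 60.7 and 76.2 CPM in CUG960 +dox mice and 34.2, 41.1 and 44.8 CPM in controls) rose (log2 fold change 1.01 ± 0.12, adjusted P value 0.0016, and log2 fold change 0.87 ± 0.13, adjusted P value 0.0048). Gnai1, an inhibitory G protein subunit, was at 12.03, 12.1 and 13.3 CPM in CUG960 +dox mice and 6.34, 7.54 and 6.601 CPM in controls (log2 fold change 0.87 ± 0.10, adjusted P value 0.0014), and Adora1, the adenosine receptor coupled to such G proteins, at 52.8, 46.7 and 61.0 CPM in CUG960 +dox mice and 26.9, 35.3 and 35.4 CPM in controls (log2 fold change 0.72 ± 0.13, adjusted P value 0.010). Rgs6, which ends muscarinic signaling in pacemaker cells, rose (0.69) and lost the call to the fold limit without V334 (log2 fold change 0.57 without V334). The downregulated member was Adcy4, an adenylyl cyclase (−0.64, adjusted P value 0.029), named after its values were seen, and of the fits without 1 library its call held only in that without V334 (adjusted P value 0.10, 0.057, 0.068, 0.080 and 0.095 without V119, V120, V123, V327 and V333).

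Among ligands and their antagonists, the TGF-β and BMP list had 6 of 58 genes called (4 up, 2 down, median −0.20). Bmp5, a bone morphogenetic protein, was at 31.4, 28.5 and 30.6 CPM in CUG960 +dox mice and 8.41, 9.24 and 8.90 CPM in controls (log2 fold change 1.77 ± 0.07, adjusted P value 1.7e-05). Chrdl2, a BMP antagonist, was at 2.30, 2.95 and 3.17 CPM in CUG960 +dox mice and 1.37, 0.969 and 1.11 CPM in controls (log2 fold change 1.29 ± 0.19, adjusted P value 0.0045), and Inhbb, the activin B subunit, at 3.80, 4.45 and 4.91 CPM in CUG960 +dox mice and 2.05, 2.01 and 1.39 CPM in controls (log2 fold change 1.27 ± 0.18, adjusted P value 0.0038). Bmper, a secreted BMP modulator of vessels, was at 2.76, 2.87 and 2.74 CPM in CUG960 +dox mice and 4.74, 5.25 and 5.14 CPM in controls (log2 fold change −0.86 ± 0.11, adjusted P value 0.0021). Mstn, myostatin, was up (0.83) with a call that was lost without most libraries (adjusted P value 0.14, 0.099, 0.11, 0.11 and 0.086 without V120, V123, V327, V333 and V334). The other downregulated gene, Fstl1, a secreted follistatin-like protein, was named after its values were seen (−0.75). Among fibroblast and other growth factor genes, 5 of 68 were called (3 up, 2 down, median −0.10), and 3 without V123. Fgf16, which is made by cardiomyocytes, was at 1.79, 2.10 and 1.97 CPM in CUG960 +dox mice and 0.543, 0.345 and 0.258 CPM in controls (log2 fold change 2.35 ± 0.27, adjusted P value 0.0016), and Fgfr4, a receptor for such ligands, at 4.12, 3.95 and 4.33 CPM in CUG960 +dox mice and 1.49, 1.23 and 0.833 CPM in controls (log2 fold change 1.802 ± 0.21, adjusted P value 0.0015). Fgf13, an intracellular partner of sodium channels, rose by 0.60 and fell short of the fold limit without 1 library (log2 fold change 0.54 and 0.56 without V123 and V334). In the Wnt and Notch list, 6 of 54 genes were called (2 up, 4 down, median −0.07). Beside Wif1, the vascular receptor Notch4 was called, at 12.5, 14.05 and 13.96 CPM in CUG960 +dox mice and 24.0, 22.3 and 18.4 CPM in controls (log2 fold change −0.68 ± 0.11, adjusted P value 0.0056). The calls of Wnt2 (−1.02, adjusted P value 0.12, 0.081, 0.053, 0.051 and 0.084 without V119, V123, V327, V333 and V334) and Sfrp2 (−0.68, adjusted P value 0.098, 0.070, 0.11 and 0.065 without V119, V123, V333 and V334) did not hold without single libraries, and without V119, V333 or V334 a single downregulated gene of the list was called. Among axon guidance genes, 3 of 58 were called (2 up, 1 down, median −0.15), 6 without V120 (4 up, 2 down) and 5 without V119 (4 up, 1 down). Sema3a, a chemorepellent that patterns cardiac sympathetic nerves, was at 17.5, 18.0 and 16.7 CPM in CUG960 +dox mice and 10.6, 9.73 and 10.3 CPM in controls (log2 fold change 0.77 ± 0.07, adjusted P value 0.00070), and Efnb3, an ephrin ligand, at 23.5, 21.8 and 20.1 CPM in CUG960 +dox mice and 43.0, 37.2 and 36.4 CPM in controls (log2 fold change −0.83 ± 0.09, adjusted P value 0.0011). Beside them, Dbh, the noradrenaline-making enzyme of sympathetic nerves, was at 1.97, 2.07 and 2.12 CPM in CUG960 +dox mice and 5.44, 5.59 and 3.53 CPM in controls (log2 fold change −1.24 ± 0.18, adjusted P value 0.0045), and the myelin gene Mbp at 21.5, 19.9 and 19.7 CPM in CUG960 +dox mice and 29.1, 34.8 and 32.6 CPM in controls (log2 fold change −0.66 ± 0.08, adjusted P value 0.0020). These were the only 2 called of 11 tested nerve and Schwann cell markers, of which 4 were higher and 7 lower (median −0.14), and the median was 0.05 without V123 and 0.04 without V334. It was −0.29 without V120 and −0.23 without V333, with 9 of the 11 lower in both fits. The 11 markers had overlapping sums in the groups (221, 259 and 235 CPM against 247, 238 and 247 CPM, Prnp most abundant), and Th had at most 15 counts in any library.

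Of 45 cardiac transcription factor genes, 2 were called (median −0.07), Cited1 and Hey2, a Notch target (−0.67, adjusted P value 0.049), whose call was lost in all but 1 of the fits without 1 library (adjusted P value 0.10, 0.10, 0.11, 0.12 and 0.098 without V119, V120, V327, V333 and V334). Of 41 nuclear receptor and metabolic regulator genes, Vdr and, at under 1 CPM and named after its values were seen, Rorb were called (median −0.04), the latter in none of the fits without 1 library (adjusted P value 0.12, 0.075, 0.11, 0.10, 0.094 and 0.15 without V119, V120, V123, V327, V333 and V334). In that list 1 gene was called without V119, V333 or V334, and 4 without V327 (3 up, 1 down). Among 56 genes of RNA-binding splicing regulators, 2 were called (1 up, 1 down, median 0.00). Khdrbs3, a STAR-family splicing factor, was at 42.0, 43.0 and 43.0 CPM in CUG960 +dox mice and 26.6, 28.5 and 28.4 CPM in controls (log2 fold change 0.62 ± 0.06, adjusted P value 0.00059), and lost the call to the fold limit when V327 was left out (log2 fold change 0.58 without V327). Celf4 was down with a call that did not hold (−0.97, adjusted P value 0.053, 0.12, 0.090, 0.073 and 0.10 without V119, V120, V123, V327 and V334). The genes at the center of the disease model were not called. Dmpk was at 550.0, 577 and 508 CPM in CUG960 +dox mice and 498, 516 and 506 CPM in controls (log2 fold change 0.10 ± 0.06, adjusted P value 0.32), Mbnl1 at 146, 159 and 168 CPM in CUG960 +dox mice and 172, 150.01 and 159.8 CPM in controls (log2 fold change −0.03 ± 0.08, adjusted P value 0.84), Mbnl2 at 227, 248 and 268 CPM in CUG960 +dox mice and 245, 219 and 228 CPM in controls (log2 fold change 0.10 ± 0.08, adjusted P value 0.41) and Celf1 at 183, 191 and 211 CPM in CUG960 +dox mice and 179, 164 and 178 CPM in controls (log2 fold change 0.16 ± 0.07, adjusted P value 0.17). Celf2 had an adjusted P value of 0.013 with a log2 fold change of −0.50, under the fold limit. The counts are of the mouse genes, and messenger RNA levels do not show protein levels or localization.

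Cell cycle genes had 6 of 65 called (4 up, 2 down, median −0.18). With single libraries left out, their median was between −0.27 (without V120) and −0.10 (without V123). Ccne1, the cyclin E1 gene of S-phase entry, was at 3.92, 4.05 and 4.52 CPM in CUG960 +dox mice and 0.747, 0.870 and 0.996 CPM in controls (log2 fold change 2.26 ± 0.15, adjusted P value 0.00016), and Ccnd2, cyclin D2, at 197, 243 and 283 CPM in CUG960 +dox mice and 141, 146 and 128 CPM in controls (log2 fold change 0.80 ± 0.12, adjusted P value 0.0052). Gadd45a, a growth arrest and DNA damage gene, was at 8.24, 6.54 and 8.08 CPM in CUG960 +dox mice and 3.59, 3.31 and 3.41 CPM in controls (log2 fold change 1.15 ± 0.12, adjusted P value 0.00098), and Ect2, an exchange factor of cytokinesis, at 2.05, 2.84 and 2.16 CPM in CUG960 +dox mice and 0.852, 0.890 and 0.870 CPM in controls (log2 fold change 1.43 ± 0.18, adjusted P value 0.0021). The downregulated genes were Plk2, a stress-induced kinase, and Rb1, the retinoblastoma gene, the latter named after its values were seen (−0.73 and −0.67), with the call of Plk2 lost without 1 library (adjusted P value 0.055, 0.087 and 0.073 without V119, V120 and V123 and log2 fold change −0.50 without V334). In the interferon and double-stranded RNA list, 2 of 53 genes were called, both up (median −0.03). Ifit2, an interferon-induced RNA-binding protein, was at 11.0, 13.9 and 11.8 CPM in CUG960 +dox mice and 6.95, 7.40 and 9.35 CPM in controls (log2 fold change 0.63 ± 0.14, adjusted P value 0.020), and its call was lost without single libraries (adjusted P value 0.076, 0.063 and 0.074 without V120, V327 and V333). Without V334, 4 genes of that list were called, all up, with a median of 0.14, and without V120, V327 or V333 1 was. Its median was between −0.18 (without V327) and 0.14 when single libraries were left out. Of 71 cytokine, chemokine and complement genes, 50 were lower and 2 were called (1 up, 1 down, median −0.18). Without V334, 37 of these were lower (median −0.02) and 3 were called, all up. None was called without V119, 1 without V120, V123 or V327, and 7 (2 up, 5 down) with no filter on low counts. The upregulated gene was the cytokine signaling inhibitor Socs2 (0.74, adjusted P value 0.072 and 0.053 without V119 and V120 and log2 fold change 0.58 without V333).

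Circadian clock genes were called in 5 of 25 cases (2 up, 3 down, median 0.15), but the controls did not form a uniform group. Arntl (BMAL1), a core activator of the clock, was at 2.26, 3.61 and 3.02 CPM in CUG960 +dox mice and 4.45, 13.4 and 16.0 CPM in controls (log2 fold change −1.93 ± 0.42, adjusted P value 0.020). Ciart, a repressor that the activator induces, was at 8.73, 5.63 and 4.58 CPM in CUG960 +dox mice and 2.96, 0.784 and 0.819 CPM in controls (log2 fold change 2.06 ± 0.51, adjusted P value 0.032). In each gene V327 lay nearer to the CUG960 +dox mice than the other controls did. The same order was seen for Dbp, an output gene of the clock, at 149, 113 and 109 CPM in CUG960 +dox mice and 85.6, 30.8 and 21.3 CPM in controls, and for the receptor gene Nr1d1, at 82.5, 86.4 and 64.2 CPM in CUG960 +dox mice and 59.7, 26.4 and 22.1 CPM in controls, neither of which was called (adjusted P values 0.070 and 0.063). Nfil3, a repressor of output genes, was at 4.47, 6.90 and 6.37 CPM in CUG960 +dox mice and 10.2, 11.1 and 14.7 CPM in controls (log2 fold change −1.02 ± 0.19, adjusted P value 0.011) and kept its call in each fit without 1 library. Arntl (adjusted P value 0.086, 0.057, 0.057 and 0.062 without V119, V120, V123 and V333), Ciart (adjusted P value 0.11, 0.076, 0.088 and 0.071 without V119, V120, V333 and V334) and Cry1 (−0.63, adjusted P value 0.076, 0.088, 0.10 and 0.10 without V119, V120, V333 and V334) did not. Without V334, 3 genes of the list were called, without V327 7, without V120 2, and without V119 or V333 1. The time of day at which each mouse was killed is not given in the sources used here, and its part in these values was not tested.

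The promoters of Ciart, Arntl and Nfil3, the called clock genes of at least 1 CPM with the largest changes, were chosen after their values were seen and are shown to set their letters beside those values, on GRCm38.p6, with motif letters in capitals. Motifs searched on both strands were the E-box CACGTG, the ROR element TAGGTCA and the D-box TTATGNAA, none of which overlapped another here.
Ciart, chr3:95882179-95882478, minus strand: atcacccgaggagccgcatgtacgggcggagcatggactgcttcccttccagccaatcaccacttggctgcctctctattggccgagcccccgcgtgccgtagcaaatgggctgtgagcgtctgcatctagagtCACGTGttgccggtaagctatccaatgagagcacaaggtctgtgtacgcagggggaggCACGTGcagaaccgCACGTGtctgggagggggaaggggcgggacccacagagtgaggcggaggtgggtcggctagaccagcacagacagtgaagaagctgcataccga
Arntl, chr7:113207261-113207560, plus strand: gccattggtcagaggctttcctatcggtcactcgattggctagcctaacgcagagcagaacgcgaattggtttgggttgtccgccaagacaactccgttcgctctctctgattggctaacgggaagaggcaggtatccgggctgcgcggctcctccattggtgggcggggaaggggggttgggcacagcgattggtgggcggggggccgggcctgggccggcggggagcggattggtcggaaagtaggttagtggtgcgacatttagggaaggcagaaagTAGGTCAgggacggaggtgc
Nfil3, chr13:52980990-52981289, minus strand: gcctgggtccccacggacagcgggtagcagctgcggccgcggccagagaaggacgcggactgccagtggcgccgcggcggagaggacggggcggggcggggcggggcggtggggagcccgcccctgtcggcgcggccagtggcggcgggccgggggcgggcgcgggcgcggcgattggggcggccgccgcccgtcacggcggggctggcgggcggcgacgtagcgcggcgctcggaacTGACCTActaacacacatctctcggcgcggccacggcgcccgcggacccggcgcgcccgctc
The Ciart window held 3 E-boxes, and those of Arntl and Nfil3 each held 1 ROR element (in Nfil3 on the other strand). Another Arntl window, at an earlier start (chr7:113207215-113207514), held none of the motifs. Cry1, which was called and lower, held an E-box, as did Per1, Tef and Bhlhe41, which were not called. In all, of the 20 genes of the list with a window, 5 held an E-box, 2 a ROR element and 2 a D-box (Per1 and Per3, not called), and these motifs are in 7.15%, 2.61% and 3.38% of all windows. A gene was counted if any of its windows matched, so these counts of genes and shares of windows differ in unit. A match in a window is a description of its letters and not a binding site.

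**Figure D4:**
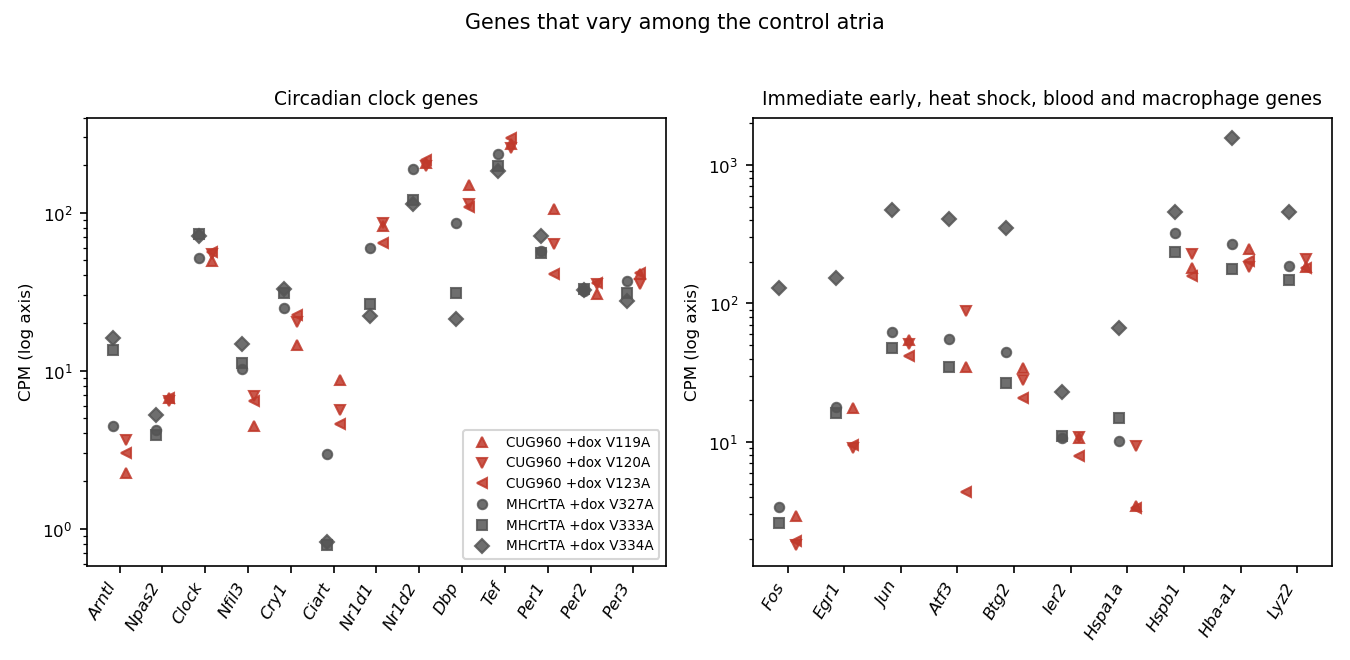
CPM (log axis) of 13 clock genes (left) and of 10 immediate early, heat shock, blood and macrophage genes (right) in each atrial library, with triangles for CUG960 +dox mice. V327 lies near the triangles for Arntl (4.45 CPM), Nr1d1 (59.7 CPM) and Dbp (85.6 CPM), and V334 lies above all other libraries for each gene on the right.

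Immediate early genes were lower in 24 of 29 cases (median −0.61), and 1 of them, Npas4, was called (−1.82), at a mean under 1 CPM and named after its values were seen, with the call lost without 4 of the libraries (adjusted P value 0.13, 0.12, 0.089 and 0.11 without V119, V120, V327 and V334). Without V334 the median was −0.16, 20 of the 29 were lower and none was called. The number called also moved with other choices, to 10 with no filter on low counts, 4 in the fit of all 12 libraries, 3 without V333, 2 without V120 or V327 and with DESeq2, and none without V119. All of these calls were down except 1 of those without V327.

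Most extracellular matrix genes had negative log2 fold changes, and those called were nearly all lower. Of 68 collagen and matrix genes, 58 were lower (median −0.32), 9 were called down and 1 up. The fold changes were modest. Postn, a matricellular protein of activated fibroblasts, was at 58.5, 46.1 and 56.4 CPM in CUG960 +dox mice and 83.5, 91.2 and 93.0 CPM in controls (log2 fold change −0.73 ± 0.10, adjusted P value 0.0026), and Eln, elastin, was at 35.2, 37.3 and 30.6 CPM in CUG960 +dox mice and 55.3, 77.0 and 56.1 CPM in controls (log2 fold change −0.87 ± 0.14, adjusted P value 0.0055). In both genes all CUG960 +dox mice were below all controls, and both calls held in each fit without 1 library. Fn1, fibronectin, was at 112, 93.2 and 100.3 CPM in CUG960 +dox mice and 144, 189 and 318 CPM in controls (log2 fold change −1.09 ± 0.25, adjusted P value 0.025), and V334 was the highest of the controls. Its call was lost without any of the CUG960 +dox libraries (adjusted P value 0.072, 0.094 and 0.066 without V119, V120 and V123), and those of Lox, the collagen cross-linking oxidase (−0.81, adjusted P value 0.082, 0.085 and 0.062 without V119, V333 and V334), and Mfap5, a microfibril protein (−0.67, adjusted P value 0.095, 0.075, 0.086 and 0.071 without V119, V123, V327 and V334), did not hold either. Without V334, 57 of the 68 genes were lower (median −0.32) and 6 were called, all down, as without V123, and without V119 5 were, all down. The sole upregulated gene, Wisp1 (Ccn4, 0.61, adjusted P value 0.029), was named after its values were seen, and of the fits without 1 library its call held only in that without V333 (adjusted P value 0.059, 0.056, 0.064, 0.070 and 0.063 without V119, V120, V123, V327 and V334). Of 44 matrix proteases and inhibitors, 2 were called (4 without V327), Adamts3, which processes procollagen (11.6, 11.8 and 12.9 CPM in CUG960 +dox mice and 6.86, 6.72 and 6.93 CPM in controls, log2 fold change 0.82 ± 0.08, adjusted P value 0.00082), and Adamtsl5, a microfibril-associated relative without protease activity (26.6, 30.0 and 34.8 CPM in CUG960 +dox mice and 49.2, 53.0 and 50.7 CPM in controls, log2 fold change −0.74 ± 0.10, adjusted P value 0.0026). As described above, fibroblast, endothelial and pericyte markers were also lower, by medians of −0.39, −0.38 and −0.41, and the matrix and fibroblast lists share Postn. Tagln, a smooth muscle gene, went up (56.1, 39.7 and 84.5 CPM in CUG960 +dox mice and 37.3, 19.7 and 20.9 CPM in controls, 1.21), with a call that was lost without single libraries (adjusted P value 0.091, 0.086, 0.11 and 0.095 without V119, V123, V333 and V334), and was the single call of 10 smooth muscle markers, of which 6 were lower (median −0.23) and whose sums overlapped between groups. When single libraries were left out, the smooth muscle median was between −0.32 (without V333) and −0.13 (without V327).

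Markers of the sinoatrial node, the pacemaker that lies in the right atrium, were examined because Hcn4, the main pacemaker channel gene, rose. Of 14 tested markers, 4 were called, all up (Hcn4, Vsnl1, Cacna1d and Rgs6), while 7 were higher and 7 lower (median 0.22). Because Hcn4 prompted the look at this list and is itself a member, the count and sum are not independent of that choice. Without V327 the median was 0.64, with 9 of the 14 higher, and without V123, V333 or V334, and with DESeq2, 1 marker was called down beside the 3 to 5 called up. The list, with the G protein gene Gnao1 most abundant, summed to 457, 471 and 507 CPM in CUG960 +dox mice and to 429.9, 411 and 371 CPM in controls. Vsnl1, a neuronal calcium sensor enriched in the node, was at 17.2, 13.7 and 16.5 CPM in CUG960 +dox mice and 7.81, 4.42 and 4.84 CPM in controls (log2 fold change 1.47 ± 0.21, adjusted P value 0.0037), and Cacna1d, the Cav1.3 calcium channel gene, at 32.1, 33.0 and 37.3 CPM in CUG960 +dox mice and 19.9, 16.0 and 11.8 CPM in controls (log2 fold change 1.10 ± 0.17, adjusted P value 0.0050). Hcn4 was at 9.40, 9.58 and 11.2 CPM in CUG960 +dox mice and 2.49, 1.91 and 0.745 CPM in controls (log2 fold change 2.55 ± 0.36, adjusted P value 0.0036). Other defining genes were not called. The transcription factor genes Shox2 (0.647, 3.24 and 1.06 CPM in CUG960 +dox mice and 3.55, 1.10 and 0.8998 CPM in controls) and Tbx3 (2.49, 2.92 and 3.69 CPM in CUG960 +dox mice and 6.23, 4.56 and 3.31 CPM in controls) were not called (adjusted P values 0.90 and 0.12), and Isl1 had at most 11 counts in any library. V327 had the highest level of all 3 of these genes. Vsnl1 was also 1 of 4 called of 43 genes of vesicle traffic, secretion and calcium sensors (3 up, 1 down, median −0.01), of which 6 were called without V123 (3 up, 3 down).

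Long noncoding RNAs were called more often than protein-coding genes, in 9.41% of 1329 tested (90 up, 35 down) against 5.18% of 14586 (444 up, 312 down), and pseudogenes in 3.09% of 745. This was not tested as an enrichment. H19, an imprinted noncoding RNA abundant in fetal muscle, was at 80.9, 65.3 and 75.3 CPM in CUG960 +dox mice and 162, 193 and 114 CPM in controls (log2 fold change −1.08 ± 0.17, adjusted P value 0.0062), and kept its call in each fit without 1 library.

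Transcripts on the skeletal muscle list were a small part of the atrial libraries, and the list is not specific to skeletal muscle. It holds Ckm and Acta1, which are given above among the energy and cardiac stress genes. All 8 tested markers were lower in CUG960 +dox mice (median −0.88), and their sum, mostly Ckm, was 648, 532 and 597 CPM against 928, 879 and 885 CPM. Tnnt3, fast troponin T, was at 0.275, 0.118 and 0.136 CPM in CUG960 +dox mice and 0.958, 0.591 and 0.656 CPM in controls (log2 fold change −2.05 ± 0.37, adjusted P value 0.010), and Tnni2, fast troponin I, was lower too (−1.34, adjusted P value 0.055, 0.056, 0.062, 0.079 and 0.056 without V119, V120, V327, V333 and V334). Of the 3 called markers, 1 was called without V120 or V327. The median of the 8 was −0.57 without V327. Markers under the filter on low counts did not all follow this direction. The skeletal myosin genes Myh1, Myh2 and Myh4 had at most 14 counts in any library, with Myh2 at 12, 7 and 10 counts in CUG960 +dox mice and 2, 3 and 4 in controls, and Myh4 at 5, 6 and 6 against 3, 0 and 1. Pvalb, parvalbumin, had 16, 29 and 7 counts against 7, 5 and 5.

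Ventricles of the same 6 mice served to ask where the atrial change differed. The interaction of tissue and genotype, fitted over all 12 libraries, passed an adjusted P value of 0.05 in 1.38% of 18327 genes. Of the 969 genes called in atria, 103 were among them, and 92 of these also passed with the mouse as a block, but a gene chosen for its atrial change is more likely to show such a difference, so that the share is a description only. Leaving out both libraries of any 1 mouse reduced the 253 genes with a difference to between 74 (without V333) and 131 (without V334). Bmp5 changed by 1.77 in atria and −0.67 in ventricles (adjusted P value of the difference 0.0021), Fhl2 by 1.09 and 0.15 (0.0023), Popdc3 by 1.35 and 0.22 (0.0071), and Fgf16 by 2.35 and 0.51 (0.0069). In these genes the atrial change was the larger, and that of Bmp5 was opposite in sign. Pfkfb1 rose in atria (1.07) and had a log2 fold change of −1.06 in ventricles (0.0018), and Efnb3, which fell in atria (−0.83), had 0.51 there (0.00032). Aass, Abat and Coq8a changed in the same direction in both tissues and by less in atria (1.07 and 2.48, 0.68 and 2.17, −1.94 and −2.60, adjusted P values of the difference 0.0028, 0.00075 and 0.033). For Vdr (2.41 and 2.33), Cited1 (3.41 and 3.12), Mybpc2 (−2.01 and −2.24) and Ckmt2 (−1.52 and −1.39) no difference between tissues was shown (adjusted P values 0.88, 0.79, 0.79 and 0.84).

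**Figure D5:**
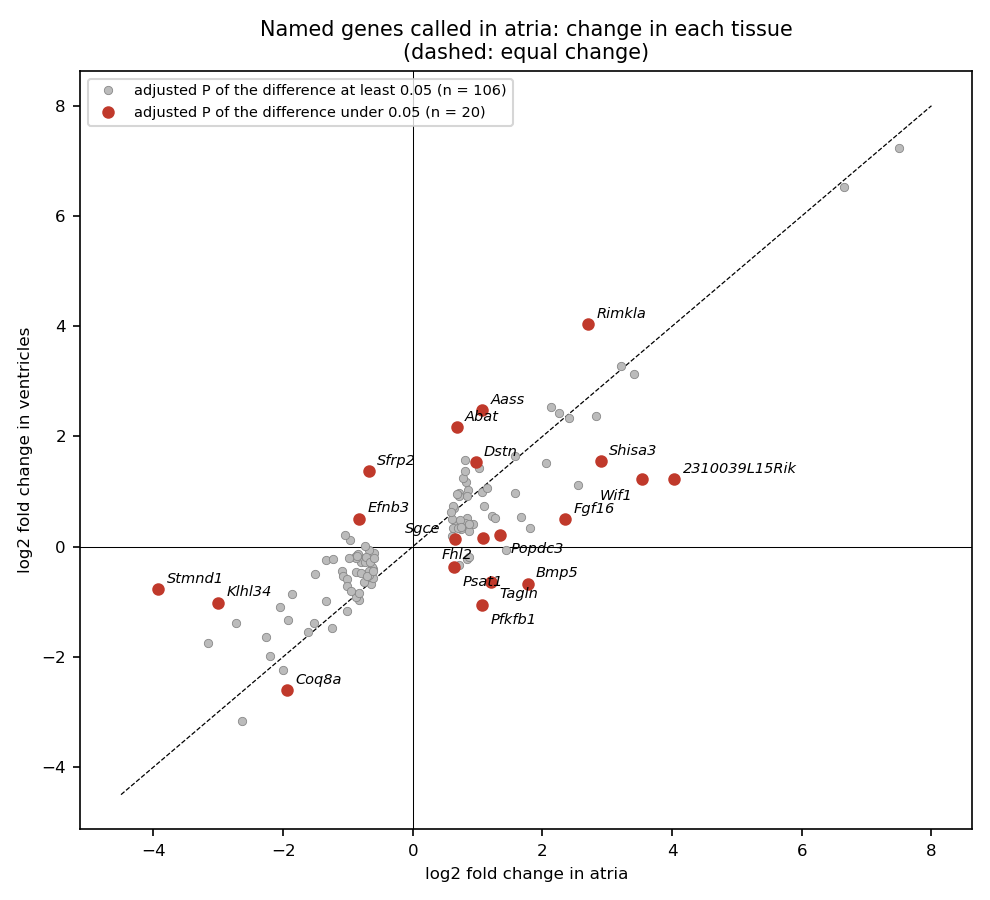
Log2 fold change in atria (horizontal) and ventricles (vertical) for 126 named genes called in atria and tested in both tissues, with the dashed line at equal change. Red points are the 20 genes whose changes differed between tissues at an adjusted P value under 0.05, among them Bmp5 at 1.77 and −0.67, and grey points are the other 106.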

How the data were processed

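Poly(A)-selected, strand-specific RNA-Seq libraries were made from whole atria and ventricles of each mouse. According to the labels and the study's methods, the authors aligned paired reads to mm10 (GRCm38) and deposited expected counts per gene from RSEM 1.3.1, as whole numbers in a table of 51826 rows, in which 92 repeated symbols were kept apart. ERCC spike-ins and the transgenes were not analysed here. Expected counts were tested with edgeR 4.0.16 (TMM scaling, filterByExpr, quasi-likelihood F test, Benjamini-Hochberg adjustment over all genes tested) on the 6 atrial libraries, and the difference between tissues as an interaction over all 12. A call needed an adjusted P value below 0.05 together with a 1.5-fold change. The test was checked on simulated counts with known changes.

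The gene lists, the motifs and the group of genes studied were chosen with earlier results of these data known. Genes were named by a rule: the 10 largest changes in each direction among called genes of at least 1 CPM, up to 5 called genes of at least 1 CPM per function list, the most abundant and up to 5 called genes per marker list, neighbours within 500 kb of the 3 largest increases, genes of the MBNL and CELF families with Dmpk, and up to 2 genes of smallest P value in lists without calls. Genes outside it were chosen after their values were seen and are marked where printed, except those that describe libraries or cell types and uncalled genes set beside called ones. Alternatives were DESeq2 1.42.0, RLE and upper quartile scaling, other filters, other fold limits, a fit of all 12 libraries and fits without each library. Same-numbered atria and ventricles came from the same mouse by their labels, and their deviations from group means correlated at r of 0.0454 to 0.32 in the 6 mice. Coordinates are from GENCODE M21 and promoters from RefSeq (GRCm38.p6). A few genes are not reported here. Figures were drawn with matplotlib 3.10.9.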

Additional observations from a re-analysis of the deposited data

Results flagged for a closer look

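The change between genotypes differed between atria and ventricles for 23 of the named genes, by the interaction term of the edgeR fit over all 12 libraries, and the difference also passed with the mouse as a block in all 23. Many of these genes were named for their atrial change, which favors such differences. Values are the log2 fold change in atria minus that in ventricles. Genes with the higher change in atria were Bmp5 2.44 (adjusted P value 0.0021), Pfkfb1 2.13 (adjusted P value 0.0018), Fgf16 1.85 (adjusted P value 0.0069), Wif1 2.32 (adjusted P value 0.029), 2310039L15Rik 2.81 (adjusted P value 0.0021), Shisa3 1.35 (adjusted P value 0.039), Popdc3 1.13 (adjusted P value 0.0071), Fhl2 0.94 (adjusted P value 0.0023), Sgce 0.52 (adjusted P value 0.0087), Psat1 1.02 (adjusted P value 0.032), Chrdl2 2.25 (adjusted P value 0.046) and Tagln 1.85 (adjusted P value 0.045). Psat1, Tagln, Pfkfb1 and Bmp5 had log2 fold changes of opposite sign in ventricles (−0.37, −0.63, −1.06 and −0.67), and Chrdl2 was not tested in ventricles alone. Those lower in atria and positive in ventricles were Nppa −1.72 (adjusted P value 0.049), Efnb3 −1.34 (adjusted P value 0.00032), Sfrp2 −2.05 (adjusted P value 0.0042) and Npr3 −0.75 (adjusted P value 0.029). For Nppa, the atrial natriuretic peptide, the log2 fold change was −0.42 in atria and 1.301 in ventricles. Genes that rose in both tissues and less in atria were Abat −1.49 (adjusted P value 0.00075), Aass −1.41 (adjusted P value 0.0028), Rimkla −1.33 (adjusted P value 0.045) and Dstn −0.56 (adjusted P value 0.030). Coq8a fell less in atria, with a difference of 0.66 (adjusted P value 0.033), and Stmnd1 −3.15 (adjusted P value 0.030) and Klhl34 −1.98 (adjusted P value 0.046) had the more negative change in atria.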

How the results depend on the processing

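The 969 genes called in atria (594 up, 375 down) became 216 (159 up, 57 down) at an absolute log2 fold change of at least 1.5 and 2573 (1404 up, 1169 down) with no fold limit, and the 133 called members of the function lists became 34 and 384. DESeq2 called 1063, of which 924 were among the 969, and RLE scaling 967. When 1 library was left out, the total ranged from 679 to 897, the upregulated genes from 431 to 549, the downregulated genes from 242 (without V119) to 359 and the list members from 105 to 137, and 511 of the 969 genes were called in each of these 6 fits. The 253 genes whose change differed between tissues (1.38% of those tested) became 1.82% of those tested with the mouse as a replicate block and 652 genes with DESeq2, and ranged from 74 to 131 when both libraries of 1 mouse were left out. The causes of these shifts were not tested. Of 131 named called genes none changed direction under any alternative. RLE scaling lost the call of Hey2, the fit of all 12 libraries those of Fgfr3 and Vsnl1, and a test against a fold of 1.2 those of 30 genes. Gm10240 and Gm13370, with 0 counts in controls, were not tested under the minimum of 10 counts. Depth was at least 116127966 counts per library and limits genes under 1 CPM, which made up 257 of the 969 calls.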
